A study of Mus musculus with 12 samples.

Results

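The genes described here are 44 genes of the TGF-beta and BMP signalling pathways in mouse mammary epithelium, taken by symbol from a list of pathway members and found in a table of 27179 genes. Of the 44, 43 had enough reads to be tested, among 14903 genes tested in all. Grem1, a secreted BMP antagonist, did not: its counts summed to 12 and 30 over the control and knockout-labelled basal groups and to 0 and 3 over the luminal groups. The study measured RNA in basal and luminal mammary epithelial cells of female mice, with 3 biological replicates in each of 4 groups. Control mice carried Foxp1(fl/fl) and no Cre, and the knockout mice were MMTV-cre/Foxp1(fl/fl); ages, and whether animals were pooled, are not given. The comparison asks what changes when Foxp1, a forkhead transcription factor, is deleted by a Cre driven by the MMTV promoter, which is known to be active in mammary and salivary epithelium. Since only the knockout mice carried Cre, an effect of the transgene and an effect of the deletion cannot be told apart.

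TGF-beta, activin and BMP ligands are secreted dimers that bind pairs of type II and type I receptor kinases on the cell surface. The receptors phosphorylate receptor-activated SMAD proteins, which join SMAD4, enter the nucleus and switch target genes, among them the Id genes, whose products block basic helix-loop-helix factors. Latent TGF-beta binding proteins hold the ligand in the matrix, secreted antagonists trap ligands, and inhibitory SMADs close the loop. In the mammary gland, TGF-beta is known to restrain duct growth, and BMP signals pass between the luminal layer and the contractile basal layer.

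The libraries held 9769361 to 11133908 reads counted to genes, and 15449513 in the third luminal knockout-labelled library. Levels are given as counts-per-million (CPM) scaled by trimmed mean of M-values factors, and the 44 genes took 0.301% to 0.659% of the counts of a library. The targeted gene checks the labels: Foxp1 was at 160 to 221 CPM in the basal controls and 193 to 284 CPM in the basal knockout-labelled libraries, and at 62.0 to 82.3 CPM in the luminal controls and 150 to 161 CPM in the luminal knockout-labelled libraries. It was thus higher, not lower, in the luminal libraries labelled as knockout (log2 fold change 1.07, SE 0.19, adjusted p = 0.0161, n = 3 against 3), so the groups are called knockout-labelled throughout; whether reads from the floxed exons were lost cannot be read from gene totals. The cell type labels matched the markers: the summed level of 10 basal markers was 15581 to 21131 CPM in basal and 150 to 753 CPM in luminal libraries, and that of 12 luminal markers was 1353 to 3279 CPM in basal and 11882 to 24093 CPM in luminal libraries. The third basal control stood apart from the other basal controls in several of the genes described here, which is stated where it bears on a value.

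Levels of different genes were compared as CPM per kilobase of gene length. In the basal controls Fst, which encodes the activin trap follistatin, had the highest mean level at 273 CPM per kilobase, followed by the latent TGF-beta binding protein gene Ltbp2 at 139, the SMAD repressor gene Skil at 107, Id2 at 94.9 and Id3 at 93.8. In the luminal controls the order was Ltbp3 at 99.7 CPM per kilobase, Skil at 83.2, Id2 at 51.6, Id3 at 51.3, the activin beta-B chain gene Inhbb at 44.3 and Tgfb3 at 40.1. Neighbours such as Id2 and Id3 overlapped between libraries. By group mean, Fst and Ltbp2 led in the basal controls and Ltbp3 in the luminal controls. The order differed in the knockout-labelled groups. In the basal ones Fst at 406 CPM per kilobase was followed by Id3 at 261, with Ltbp2 at 128. In the luminal ones Id3 at 98.2 had the highest mean, above Ltbp3 at 75.0. The BMP ligand genes were near the bottom of the range in the control groups, except Bmp7 in the basal controls. It was at 50.2 CPM per kilobase there and at 1.51 in the luminal controls.

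**Figure D1:**
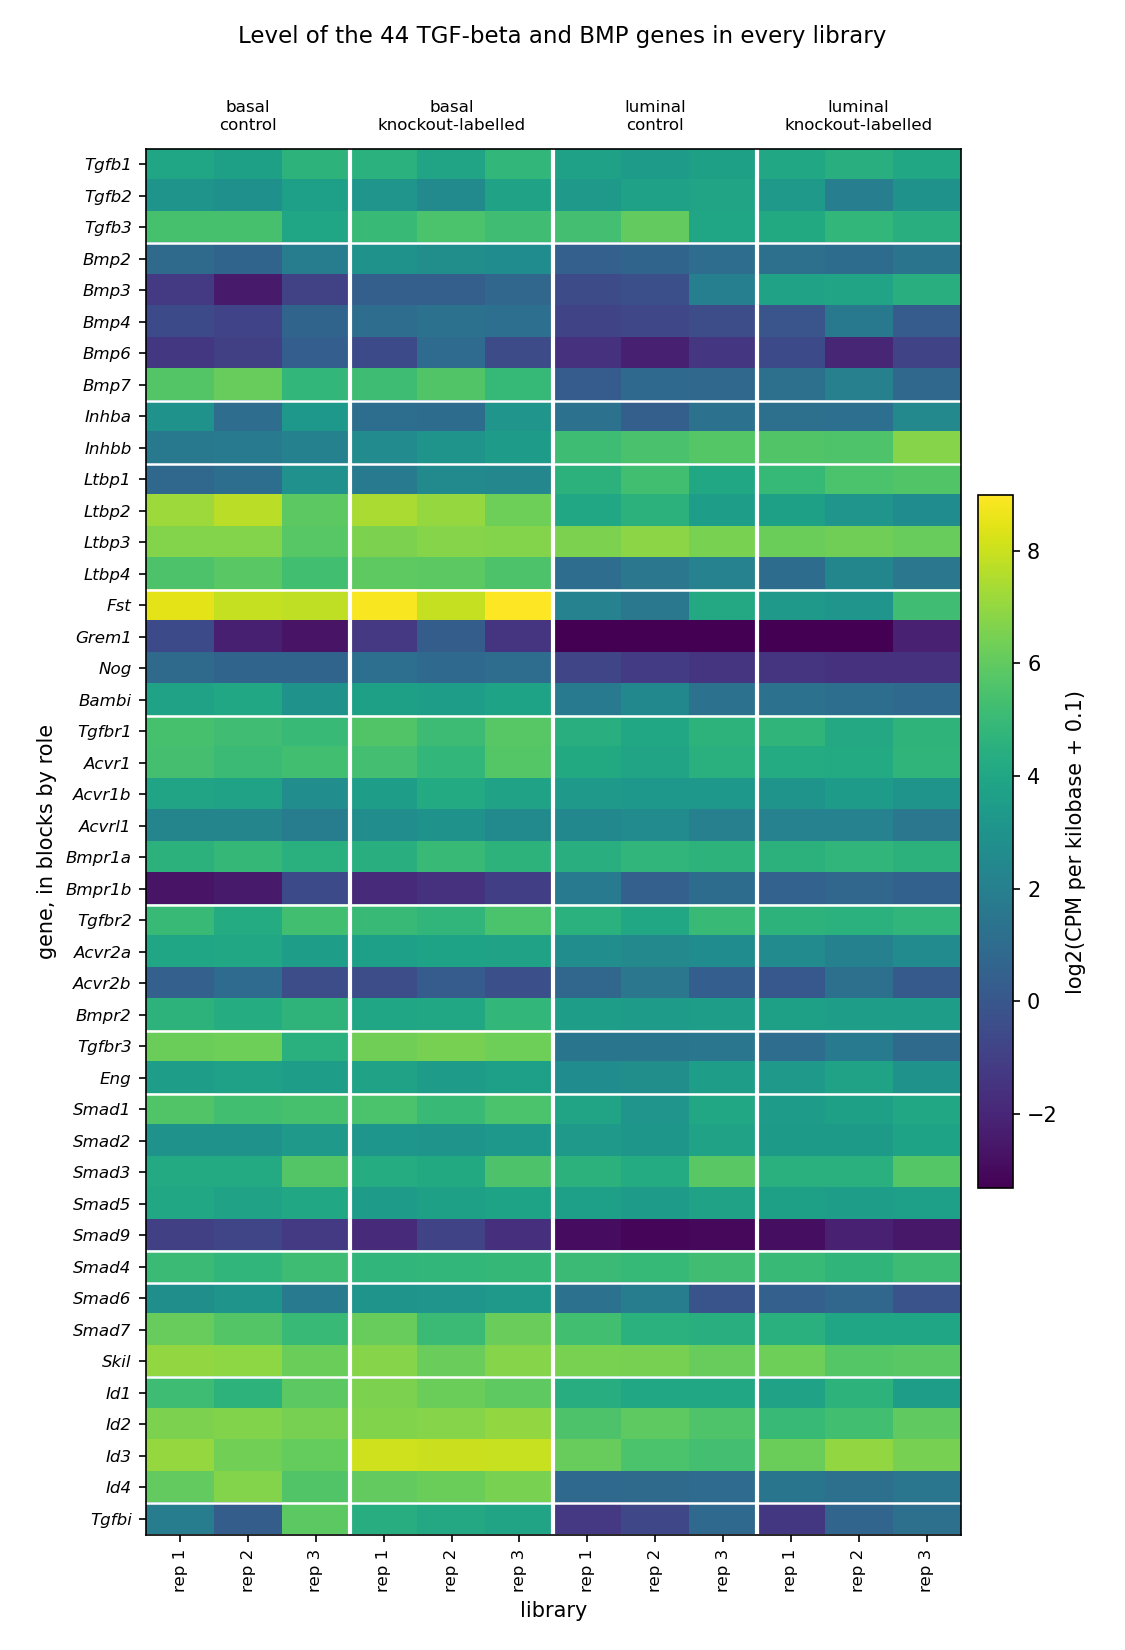
Level of each of the 44 genes (rows, ordered by role) in each of the 12 libraries (columns, 3 per group), as log2 of CPM per kilobase plus a pseudocount of 0.1. Fst, Ltbp2, Ltbp4, Bmp7, Tgfbr3 and Id4 are higher in the basal columns than in the luminal columns, and Inhbb and Ltbp1 show the opposite pattern.

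Most of the pathway genes that differed between the cell types were lower in luminal cells. In the controls 4 genes were higher in luminal than in basal cells (Bmp3, Inhbb, Ltbp1 and Bmpr1b) and 19 were lower, of 43 tested, so 53.5% passed an adjusted p of 0.05 against 33.2% of all genes. By direction the shares were 9.3% higher and 44.2% lower, against 16.3% and 16.8% of all genes. In the knockout-labelled mice 4 genes were higher and 22 lower, 60.5% in all against 40.6% of all genes (19.2% higher and 21.4% lower). The median log2 difference, luminal minus basal, was -0.85 over the 43 genes and 0.04 over all genes in controls, and -0.84 and 0.03 in the knockout-labelled mice. All 23 genes that differed in controls also differed, in the same direction, in the knockout-labelled libraries. These are different libraries, but both comparisons come from 1 fit that shares its estimate of spread. The same share over all genes is not given here. The 23 genes are 88.5% of the 26 called in the knockout-labelled mice, and the other 3 were Bmp2, Acvrl1 and Smad7. In bulk RNA a lower level may come from fewer cells of a type or less RNA per cell, and these cannot be told apart. Markers of stromal cells moved with this comparison. Of 14 fibroblast markers, 12 had log2 differences below 0 in luminal against basal controls and 14 in the knockout-labelled mice. In controls 2 were called lower and 1 higher (Dpp4, 1.97, adjusted p = 0.0137), and in the knockout-labelled mice 13 lower and 0 higher. The summed level of the 14 was 627 to 979 CPM in basal and 83.8 to 459 CPM in luminal controls. Of 8 pericyte markers 5 were called lower and 1 higher in luminal controls (7 lower and 1 higher in the knockout-labelled mice), and of 12 endothelial markers 0 were called lower and 1 higher by edgeR in controls (1 was lower at an unadjusted p under 0.05), and 8 lower and 1 higher in the knockout-labelled mice. Salivary gland markers went the other way: 9 of 10 were called higher in luminal controls and 8 in the knockout-labelled mice, with sums of 1004 to 4129 CPM in basal and 11164 to 122604 CPM in luminal controls. The part of these markers in the differences between the cell types was not tested.

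**Figure D2:**
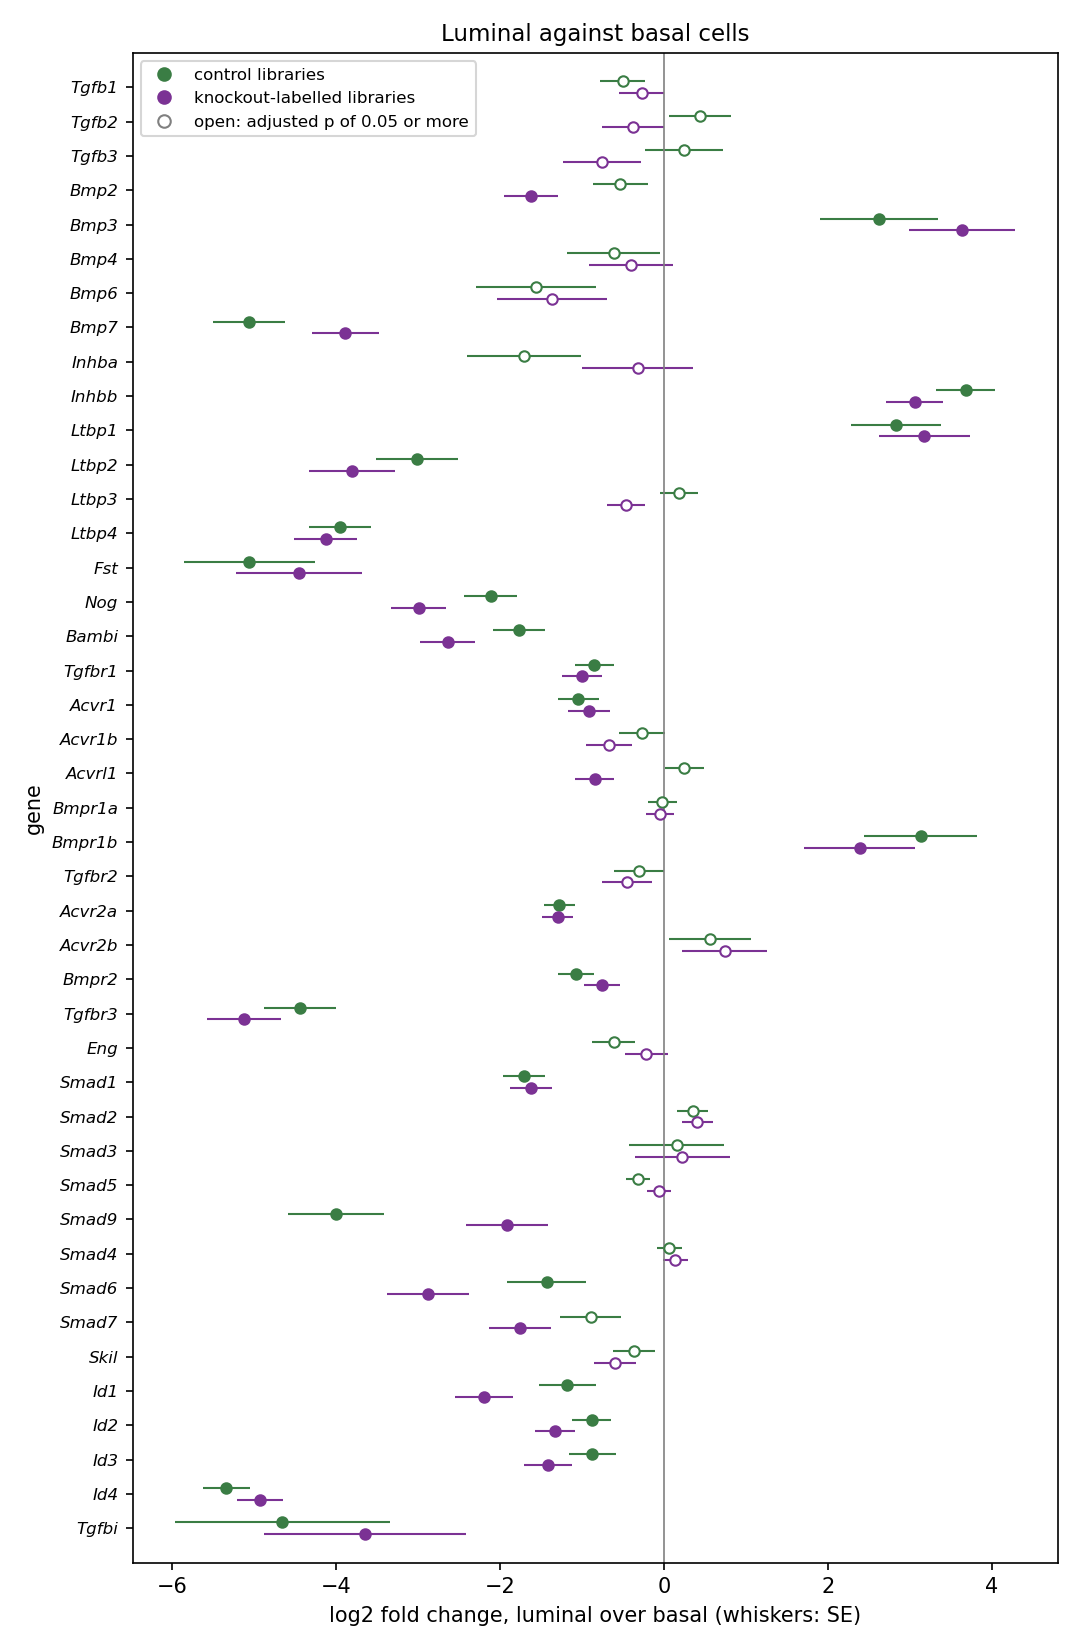
Log2 difference of luminal minus basal cells with its standard error for each of the 43 tested genes, in control and in knockout-labelled mice (3 libraries per group). The points for Id4, Fst, Bmp7, Tgfbr3 and Ltbp4 lie between -5.33 and -3.88 in both, and those for Inhbb, Ltbp1, Bmp3 and Bmpr1b lie above 2.

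Among the ligands, Bmp7, which encodes a BMP made by many epithelia, was a basal gene. Its levels were 104, 137 and 55.5 CPM in the basal controls (replicates 1, 2 and 3, in that order here and below) and 69.8, 97.5 and 60.2 CPM in the basal knockout-labelled libraries, against 2.15, 3.42 and 3.32 CPM in the luminal controls and 4.39, 7.79 and 3.27 CPM in the luminal knockout-labelled libraries. No luminal library came near any basal one. The log2 difference was -5.05 (SE 0.44, adjusted p = 1.20e-05) in controls and -3.88 (SE 0.41, adjusted p = 3.68e-05) in the knockout-labelled mice. Inhbb was the reverse. It stood at 12.9, 13.5 and 17.7 CPM in the basal controls, 25.7, 35.3 and 45.0 in the basal knockout-labelled libraries, 153, 184 and 228 in the luminal controls and 212, 207 and 466 in the luminal knockout-labelled libraries, and the cell types did not overlap (3.68, SE 0.36, adjusted p = 2.24e-05 in controls; 3.06, SE 0.35, adjusted p = 5.72e-05 in the knockout-labelled mice). Inhba, which encodes the activin beta-A chain, was at a log2 difference of -1.71 in controls (SE 0.70, adjusted p = 0.0819), and with the replicate number as a block it was called lower in luminal cells (-1.56, SE 0.43, adjusted p = 0.0163). The 3 TGF-beta ligand genes did not pass the test in controls or in the knockout-labelled mice, and their differences lay between -0.75 and 0.44. Bmp4 and Bmp6 did not pass either, at -0.61 and -1.56 in controls.

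Bmp3, which encodes an atypical BMP known to act through activin receptors and to oppose other BMPs, was low in the basal controls and highest in the luminal knockout-labelled libraries. It was at 1.04, 0.27 and 1.29 CPM in the basal controls, which is 10, 3 and 14 counts, and at 3.85, 3.76 and 4.89 CPM in the basal knockout-labelled libraries. In the luminal controls it was at 1.96, 2.22 and 11.96 CPM and in the luminal knockout-labelled libraries at 42.1, 45.7 and 68.1 CPM. The luminal knockout-labelled libraries were above all others, and the basal controls below all others. The luminal minus basal difference was 2.62 (SE 0.71, adjusted p = 0.0153) in controls and 3.64 (SE 0.65, adjusted p = 0.00112) in the knockout-labelled mice. In controls the call was lost without basal control 2 (2.18, adjusted p = 0.0578), and the difference dropped to 1.23 without luminal control 3 (adjusted p = 0.0738).

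The latent TGF-beta binding proteins were divided between the cell types. Ltbp4 was at 262, 320 and 214 CPM in the basal controls and 340, 334 and 264 in the basal knockout-labelled libraries, against 11.2, 15.8 and 24.4 in the luminal controls and 10.9, 27.2 and 15.7 in the luminal knockout-labelled libraries. Basal and luminal libraries were far apart (-3.95, SE 0.38, adjusted p = 2.01e-05 in controls; -4.12, SE 0.38, adjusted p = 1.46e-05 in the knockout-labelled mice). Ltbp2 was at 957, 1414 and 391 CPM in the basal controls and 1139, 881 and 519 in the basal knockout-labelled libraries, and at 109, 160 and 74.7 in the luminal controls and 85.1, 55.4 and 41.5 in the luminal knockout-labelled libraries. It too was lower in every luminal library (-3.01, SE 0.50, and -3.80, SE 0.52, adjusted p = 0.000849 and 0.000204). Ltbp1 went the other way, with 13.3 to 59.5 CPM in the basal controls and 129 to 316 CPM in the luminal controls (2.83, SE 0.55, adjusted p = 0.00221), and Ltbp3 did not pass (0.18, SE 0.23).

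The 3 tested antagonist genes were all lower in luminal cells in both kinds of mice. Fst was at 838, 555 and 520 CPM in the basal controls and 1087, 571 and 1191 in the basal knockout-labelled libraries, and at 10.01, 6.94 and 40.6 in the luminal controls and 22.6, 20.1 and 87.4 in the luminal knockout-labelled libraries. Every basal library was far above every luminal one, and the difference was -5.06 (SE 0.80, adjusted p = 0.000592) in controls and -4.45 (SE 0.77, adjusted p = 0.000959) in the knockout-labelled mice. Nog, which encodes the BMP trap noggin, was low throughout and lower in luminal controls (2.77 to 3.53 against 0.50 to 0.94 CPM, difference -2.11, SE 0.32). Bambi, a receptor-like membrane protein without a kinase, was at 38.0 to 84.9 against 12.3 to 26.5 CPM (-1.77, SE 0.32).

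Of the receptors, the co-receptor gene Tgfbr3 (betaglycan, which presents TGF-beta to its type II receptor) differed most. Its levels were 456, 476 and 136 CPM in the basal controls and 477, 528 and 472 in the basal knockout-labelled libraries, and 16.2, 16.3 and 16.9 in the luminal controls and 12.1, 19.5 and 10.8 in the luminal knockout-labelled libraries. The third basal control was well below the other basal libraries but above every luminal one. The difference was -4.43 (SE 0.44, adjusted p = 2.37e-05) in controls and -5.12 (SE 0.45, adjusted p = 1.13e-05) in the knockout-labelled mice. The type I receptor genes split 1 higher and 2 lower of 6 in controls: Bmpr1b was higher in luminal cells (3.14, SE 0.69), and Tgfbr1 (-0.85, SE 0.24) and Acvr1 (-1.04, SE 0.25) were lower. Bmpr1b rested on 3, 5 and 33 counts in the basal controls, the third standing apart, against 181, 72 and 103 in the luminal controls. Bmpr1a, at 116 to 167 CPM across the 12 libraries, showed the least difference of the type I receptors (-0.02, SE 0.17, adjusted p = 0.955). Among the type II receptors Acvr2a (-1.28, SE 0.19) and Bmpr2 (-1.07, SE 0.22) were lower in luminal controls, while Tgfbr2 (-0.30, SE 0.30) and Acvr2b (0.56, SE 0.50) did not pass. Eng, the endothelial co-receptor gene, was at -0.61 (SE 0.26, adjusted p = 0.0959) beside endothelial marker sums of 90.2 to 210 CPM in basal and 106 to 205 CPM in luminal controls.

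Among the SMAD genes, Smad1, Smad6 and Smad9 were lower in luminal cells in both kinds of mice. Smad4, the shared partner, was at 88.4 to 124 CPM over the 12 libraries (log2 difference 0.07, SE 0.16, in controls). Smad2, Smad3 and Smad5 did not pass in either kind of mouse, although Smad2 was called slightly higher in luminal controls with the replicate block (0.34, adjusted p = 0.0334, against 0.173 without it). The BMP-responsive Smad1 was lower in luminal controls, at 118 to 152 against 26.0 to 51.1 CPM (-1.71, SE 0.25, adjusted p = 0.000406). Smad9, which encodes SMAD8, was at 2.18, 2.68 and 1.76 CPM in the basal controls and 1.01, 2.51 and 1.19 in the basal knockout-labelled libraries, against 0.19, 0.09 and 0.10 in the luminal controls and 0.20, 0.63 and 0.40 in the luminal knockout-labelled libraries. Its luminal control level rested on 2, 1 and 1 counts, and its fitted difference there was -3.999 (SE 0.59, adjusted p = 0.000376). The inhibitory Smad6 was lower in luminal controls (-1.43, SE 0.48, adjusted p = 0.0393). Smad7 was lower in the luminal knockout-labelled libraries (-1.75, SE 0.37, adjusted p = 0.00336) and was at -0.89 in controls (adjusted p = 0.0829), where the replicate block called it (-0.91, adjusted p = 0.0224). Skil was not called (-0.36, SE 0.26).

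All 4 Id genes, the usual readout of BMP signalling, were lower in luminal cells in both kinds of mice. Their promoters are shown for the 3 that the RefSeq table of mouse build GRCm38.p6 gave, as the 250 bases before the start of the gene, 5′ to 3′ on the strand of the gene. Capitals mark the letters GGCGCC, which reads the same on the other strand. They also mark GGAGCC on either strand, so that the other strand shows as its reverse complement. Both are known from binding sites of the BMP-responsive SMADs. The letters CAGACA, known from binding sites of SMAD3 and SMAD4, were searched on both strands too, and in these 3 windows no match overlapped another. The Id3 promoter is chr4:136143572-136143821 (+ strand), the Id2 promoter chr12:25096093-25096342 (- strand) and the Id4 promoter chr13:48260866-48261115 (+ strand).
Id3: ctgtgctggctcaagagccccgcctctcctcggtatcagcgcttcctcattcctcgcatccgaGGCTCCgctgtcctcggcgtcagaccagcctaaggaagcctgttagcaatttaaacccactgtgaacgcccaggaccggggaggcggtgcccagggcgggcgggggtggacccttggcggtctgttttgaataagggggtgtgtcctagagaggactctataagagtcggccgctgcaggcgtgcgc
Id2: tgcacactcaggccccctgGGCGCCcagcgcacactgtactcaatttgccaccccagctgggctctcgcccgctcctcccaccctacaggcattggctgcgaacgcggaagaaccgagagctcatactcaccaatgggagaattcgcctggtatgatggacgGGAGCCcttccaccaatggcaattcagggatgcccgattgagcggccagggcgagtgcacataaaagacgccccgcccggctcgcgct
Id4: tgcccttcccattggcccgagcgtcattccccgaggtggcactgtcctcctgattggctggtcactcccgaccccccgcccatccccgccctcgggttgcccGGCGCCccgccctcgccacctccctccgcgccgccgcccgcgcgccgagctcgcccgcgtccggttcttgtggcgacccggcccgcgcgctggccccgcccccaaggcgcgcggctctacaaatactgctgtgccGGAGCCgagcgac
The Id3 window held 1 GGAGCC, on the other strand, and the Id2 and Id4 windows held 1 of each of the BMP-type motifs. None of the 3 held the TGF-beta-type motif CAGACA, which 17.1% of all 32851 promoter windows of that length in the table held, and 10.5% of 38 windows belonging to 30 of the 44 genes. The motif GGCGCC was held by 9.59% of all windows and 28.9% of the 38. For the motif GGAGCC the shares were 26.0% and 44.7%. The Id windows are rich in G and C (62.8%, 62.8% and 75.6% for Id3, Id2 and Id4), and the promoter shares above are over windows of any base composition. A match is a description of the letters only.

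Id4 had the widest gap of the 43 genes in controls. It was at 109, 172 and 82.5 CPM in the basal controls and 110, 124 and 152 in the basal knockout-labelled libraries, and at 2.90, 2.96 and 3.12 in the luminal controls and 4.39, 3.76 and 4.54 in the luminal knockout-labelled libraries. The cell types did not overlap (-5.33, SE 0.29, adjusted p = 1.62e-06 in controls; -4.92, SE 0.28, adjusted p = 1.19e-06 in the knockout-labelled mice). Id1, Id2 and Id3 had smaller gaps of -1.18 (SE 0.35), -0.88 (SE 0.24) and -0.87 (SE 0.29) in controls. Tgfbi, which encodes a secreted matrix protein named for its induction by TGF-beta, was at 9.85, 3.04 and 161 CPM in the basal controls and 54.8, 46.3 and 39.2 in the basal knockout-labelled libraries, and at 0.84, 1.39 and 4.73 in the luminal controls and 0.80, 4.12 and 6.07 in the luminal knockout-labelled libraries. The third basal control held most of its control signal. The difference of -4.65 in controls (SE 1.31, adjusted p = 0.0183) was -1.47 without that library (adjusted p = 0.176), and the call was also lost without luminal control 1 or 2 (0.0689 and 0.0663). In the knockout-labelled mice it was -3.64 (SE 1.23, adjusted p = 0.0345), and each library left out there ended the call (adjusted p = 0.0568 to 0.104).

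Several of the smaller differences between the cell types lost their call when 1 library was left out, often for more than 1 choice of library. In controls, Smad6 lost its call without any of basal controls 1 and 2 and luminal controls 1 and 3 (adjusted p = 0.0675 to 0.131), Id3 without basal control 1 or 2 or luminal control 2 or 3 (0.0578 to 0.159), Id1 without basal control 3 or luminal control 2 or 3 (0.0588 to 0.0874, with the difference at -0.77 without basal control 3), Id2 without basal control 2 or luminal control 1 (0.0501 and 0.0509) and Tgfbr1 without basal control 1 or luminal control 2 (0.0591 and 0.0697). In the knockout-labelled mice Acvr1, Bmpr2, Acvrl1, Bmpr1b and Smad9 each lost theirs without at least 1 library (0.0516 to 0.0640), with Bmpr2 at -0.43 without basal knockout-labelled library 3 against -0.76 with it. No sign changed.

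In basal cells, knockout-labelled against control, 1 pathway gene rose: Id3. No gene fell, by edgeR, DESeq2 or limma-voom, and none was lower at an unadjusted p under 0.05. The 1 of 43 tested genes (2.33%) compares with 0.671% of all genes called, 0.611% higher and 0.0604% lower. The count over all genes, 100, moved to between 17 and 122 when 1 basal library was left out. At an unadjusted p under 0.05 there were 7 of the 43 genes, all with higher means. Over all 14903 genes tested there were 1324, of which 981 were higher and 343 lower. Fold changes above 0 were 29 of the 43 and 7270 of the 14903. Their median was 0.18 over the 43 and -0.01 over all genes. In 8 genes every knockout-labelled library was above every control (Bmp2, Bmp3, Bmp4, Inhbb, Acvrl1, Smad6, Id1 and Id3) and in 0 every one was below, which is 18.6% against 12.4% of all genes.

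**Figure D3:**
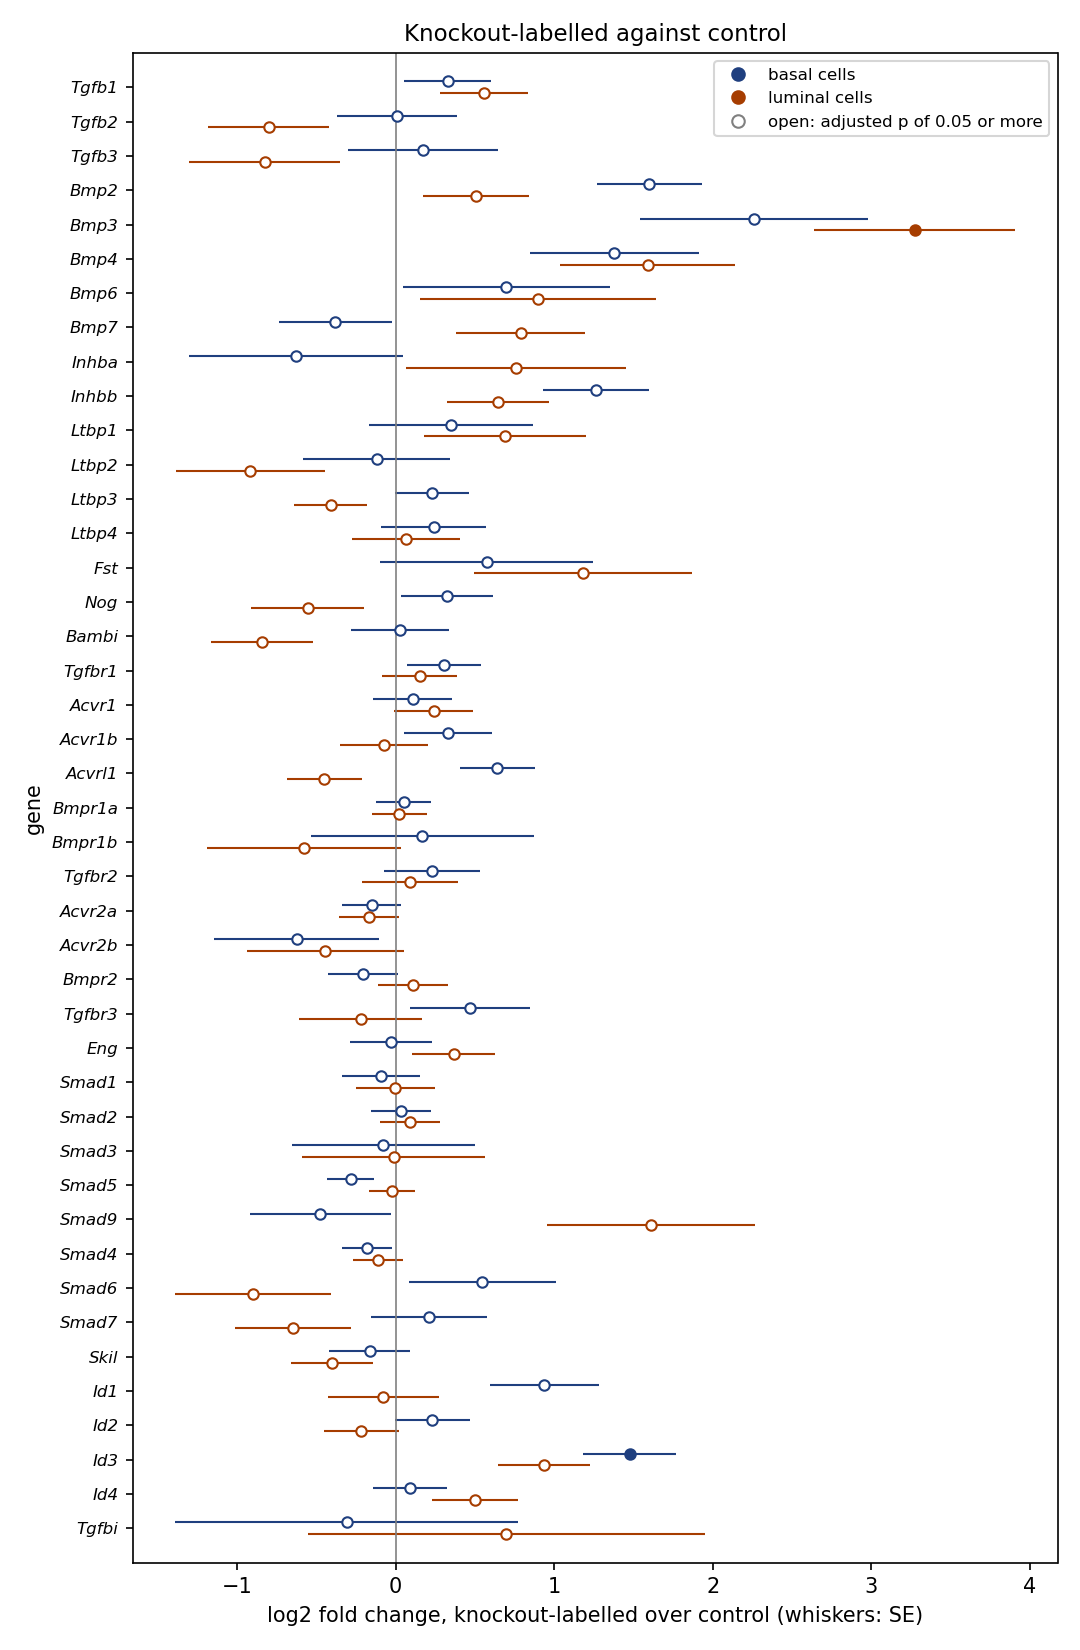
Log2 fold change of knockout-labelled against control libraries with its standard error for each of the 43 tested genes, in basal and in luminal cells (3 libraries per group). Id3 in basal cells (1.48) and Bmp3 in luminal cells (3.28) are the filled points that passed an adjusted p of 0.05.

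Id3 was at 125, 79.5 and 63.5 CPM in the basal controls and at 262, 246 and 238 CPM in the basal knockout-labelled libraries. All 3 knockout-labelled libraries were nearly equal and above the highest control. The log2 fold change was 1.48 (SE 0.29, adjusted p = 0.0493), just under the threshold, and leaving out any of the 6 basal libraries lifted it over (0.0679 to 0.227). Id1 was at 32.4, 22.4 and 54.4 CPM in the controls and 85.3, 68.3 and 55.5 CPM in the knockout-labelled libraries, which did not overlap by a narrow margin (0.94, SE 0.34, adjusted p = 0.360). Id2 and Id4 were at 0.23 and 0.09.

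The ligand genes Bmp2, Bmp3, Bmp4 and Inhbb had higher means in the knockout-labelled basal libraries but did not pass the test. Bmp2, which encodes a BMP that induces Id genes, was at 4.56, 3.66 and 8.96 CPM in the controls and 19.5, 16.9 and 15.8 CPM in the knockout-labelled libraries. The groups were well apart (1.60, SE 0.33, adjusted p = 0.0579), and the call was made without basal control 3 (adjusted p = 0.0110). Inhbb, with the values given above, did not overlap either (1.26, SE 0.33, adjusted p = 0.137). Bmp4 was at 1.14, 0.89 and 2.96 CPM in the controls and 4.05, 4.66 and 4.35 CPM in the knockout-labelled libraries, again without overlap (1.38, SE 0.53, adjusted p = 0.412). Bmp3, at 3 to 14 counts per control library, had a fold change of 2.26 (SE 0.72, adjusted p = 0.241). Of the other ligand genes, Bmp7 was at -0.38, Bmp6 at 0.70, Inhba at -0.63 and the 3 TGF-beta genes between 0.01 and 0.33, none of them called.

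The receptors and SMADs moved little in basal cells. Acvrl1, a type I receptor best known from endothelium, was at 17.01, 17.5 and 12.7 CPM in the controls and 23.2, 29.1 and 21.3 CPM in the knockout-labelled libraries (0.64, SE 0.24, adjusted p = 0.368), with endothelial marker sums of 90.2 to 210 and 132 to 157 CPM, which overlapped. The 6 type I receptor genes were between 0.05 and 0.64, the 4 type II between -0.62 and 0.23 and the 2 co-receptors at -0.03 and 0.47. Smad5 was at 118, 96.7 and 118 CPM in the controls and 79.7, 92.6 and 100.5 CPM in the knockout-labelled libraries, which overlapped (-0.28, SE 0.15, adjusted p = 0.664). The other receptor SMADs were between -0.48 and 0.03, Smad4 at -0.18, and Smad6, Smad7 and Skil at 0.55, 0.21 and -0.17. The 4 latent TGF-beta binding protein genes were between -0.12 and 0.35, the 3 antagonist genes between 0.03 and 0.57, and Tgfbi at -0.31 (SE 1.08).

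Other cell types moved with the basal comparison. The summed level of 14 fibroblast markers was 627 to 979 CPM in the basal controls and 2201 to 3189 CPM in the basal knockout-labelled libraries. Of the 14, 13 did not overlap between the groups, all higher in the knockout-labelled libraries, 2 were called (Pdgfra and Dpp4), the median log2 fold change was 2.50, and none was at 0. The 12 luminal markers summed to 1353 to 2069 and 1905 to 3279 CPM, which overlapped, but Krt18 (0.88), Krt19 (1.59), Cldn3 (0.93) and Elf3 (0.59) were higher without overlap, and 5 of the 12 were higher and 1 lower at an unadjusted p under 0.05, with 0 called by edgeR. The 10 salivary gland markers had mixed signs, 6 above 0 and 4 below, and summed to 1004 to 4129 and 195 to 4583 CPM, which overlapped. Of these, Smr3a fell (-5.89, adjusted p = 0.0312), and Dcpp1, Dcpp2 and Dcpp3 were lower without overlap (-3.84, -4.21 and -4.28) and not called. Prol1 (2.50) and Mucl2 (3.88) were higher at an unadjusted p under 0.05 and not called. The 8 pericyte markers summed to 204 to 472 and 294 to 457 CPM, which overlapped. Of these 8, 7 had fold changes above 0 and 1 below, with a median of 0.94 and 0 called. Pdgfrb (1.05) and Abcc9 (1.71) were higher without overlap. Mcam, the marker with the highest level, was at -0.04. Immune marker sums were lower without overlap. The 10 macrophage markers summed to 71.1 to 85.4 and 31.9 to 65.1 CPM, and the 7 T and B cell markers to 14.0 to 15.5 and 6.27 to 9.83 CPM, with 0 called. The part of these markers in the values of Id3, Id1, Bmp2, Bmp4, Bmp3 and Inhbb was not tested.

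In luminal cells 1 pathway gene rose as well, Bmp3, and 0 fell. That is 2.33% of 43 against 3.03% of all genes (2.21% higher, 0.819% lower), a share below the background. The count over all genes, 451, moved to between 127 and 589 when 1 luminal library was left out. By DESeq2 and limma-voom also, 0 were lower. At an unadjusted p under 0.05 there were 5 of the 43, with 4 higher and 1 (Bambi) lower. Over all 14903 genes tested there were 2567, with 1376 higher and 1191 lower. The signs were even, with 22 above 0 and 21 below, beside 7069 and 7829 over all genes. The median was 0.02 against -0.03 over all genes. In 7 genes all knockout-labelled libraries were above all controls (Tgfb1, Bmp3, Bmp4, Bmpr2, Smad9, Id3 and Id4) and in 3 all were below (Ltbp3, Nog and Bambi), 23.3% against 25.4% of all genes.

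**Figure D4:**
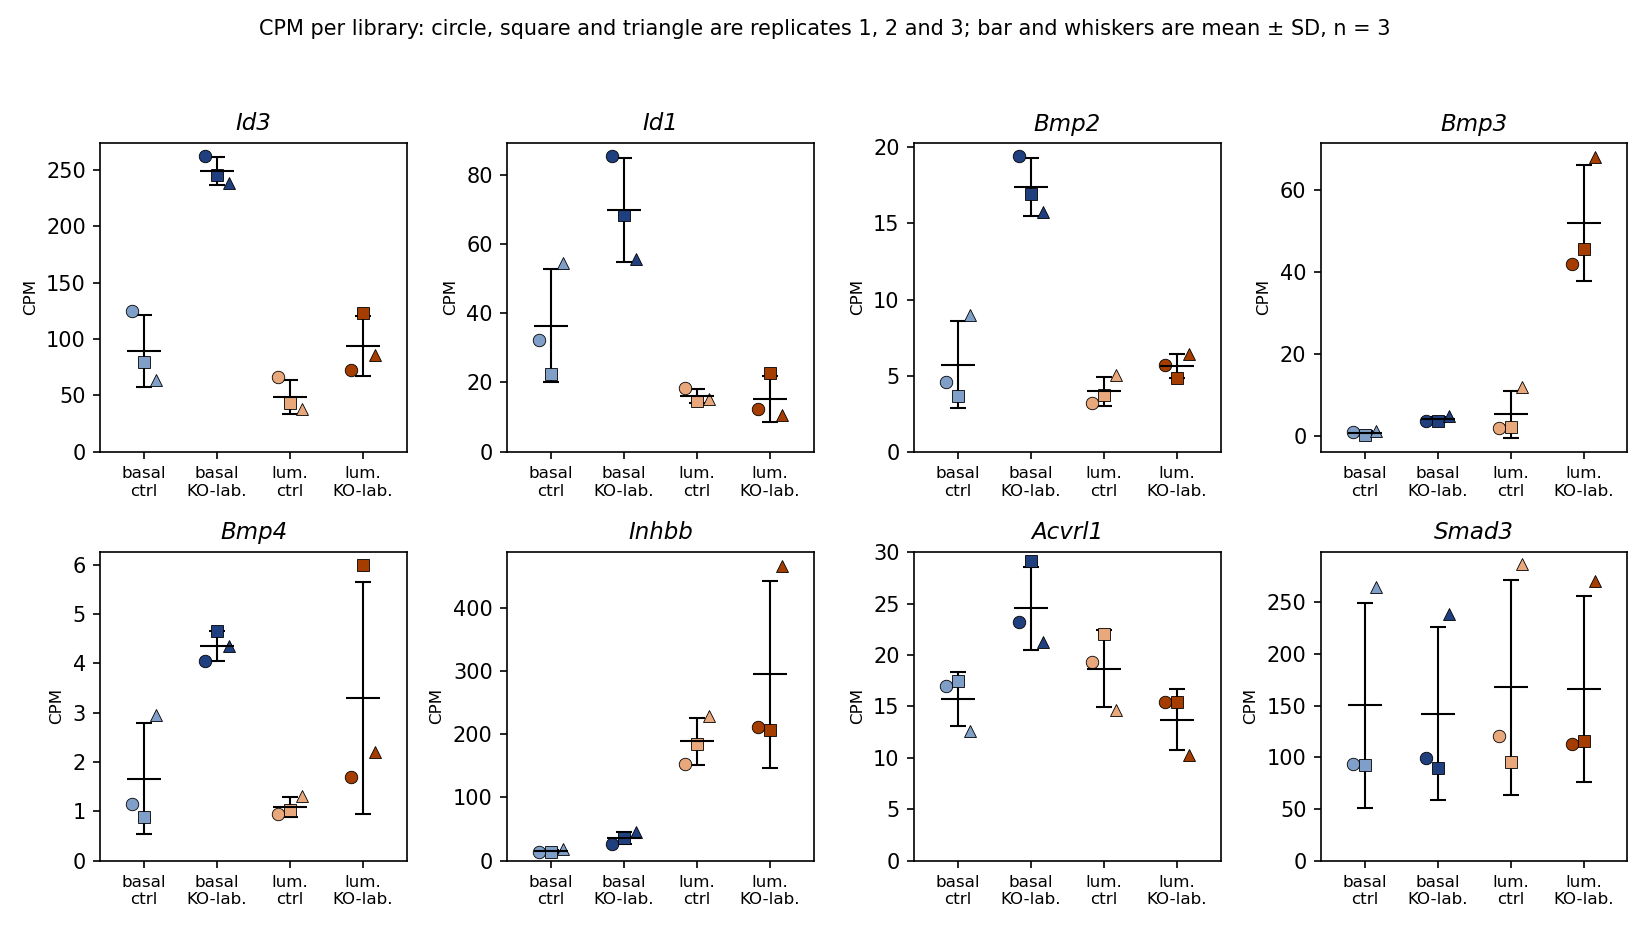
CPM of 8 genes in each of the 12 libraries (points, with circle, square and triangle for replicates 1, 2 and 3), with the group mean and SD (3 libraries per group), on linear axes. Bmp3 stands at 42.1 to 68.1 CPM in the luminal knockout-labelled libraries against at most 11.96 CPM elsewhere, and Id3 at 238 to 262 CPM in the basal knockout-labelled libraries against at most 125 CPM elsewhere.

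Bmp3 had by far the largest fold change of the 43 genes in luminal cells. With the libraries given above, 1.96, 2.22 and 11.96 CPM in the controls became 42.1, 45.7 and 68.1 CPM in the knockout-labelled libraries, a log2 fold change of 3.28 (SE 0.63, adjusted p = 0.0193). The lowest knockout-labelled library was above the highest control. The call was lost without luminal control 1 (adjusted p = 0.0726) or 2 (0.0800) or knockout-labelled library 2 (0.0576) or 3 (0.0725), with the fold change at 2.88 or above in every alternative. Basal marker sums were 150 to 720 CPM in the luminal controls and 325 to 753 CPM in the knockout-labelled libraries, and fibroblast marker sums 83.8 to 459 and 139 to 393 CPM, both overlapping. Of the 10 basal markers, 3 had fold changes above 0 and 7 below, with a median of -0.39. Trp63 alone of the 10 was called, higher without overlap (2.80, SE 0.58, adjusted p = 0.0253). Oxtr had the lowest fold change (-2.17, SE 0.80, adjusted p = 0.183). Of the 10 salivary gland markers Prol1 was called higher (3.61, adjusted p = 0.0310) and Smr3a lower (-9.47, adjusted p = 0.00321), and Mucl2 was at 4.94 without overlap (adjusted p = 0.0747); their sums were 11164 to 122604 and 20392 to 84732 CPM. Of the 12 endothelial markers 11 had fold changes below 0, with a median of -1.29 and 7 lower at an unadjusted p under 0.05, and 0 were called by edgeR. The 6 adipocyte markers summed to 66.1 to 116 and 36.8 to 56.9 CPM, and the 7 T and B cell markers to 3.84 to 5.13 and 2.51 to 3.79 CPM. Neither sum overlapped, and 0 of these were called. Of the 6 adipocyte markers 2 were tested, and Adipoq and Lep were at 0 in every luminal library. Mean Fabp4 went from 42.0 to 8.91 CPM (-2.22), with overlap, and mean Lipe from 41.9 to 39.0 CPM (-0.11). The part of all these markers in the luminal values was not tested. Predicted genes (Gm34563 and Gm42123) overlap the span of Bmp3 in RefSeq. In all, 21 of the 44 genes have a span that overlaps another RefSeq gene, among them Id4, Fst, Bmp7, Bmp4, Ltbp1, Ltbp2, Ltbp4 and Tgfbr3, but not Id3. Since the library kit does not mark strand, reads in shared stretches cannot be assigned to either gene.

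Id3 and Bmp4 pointed the same way in luminal as in basal cells without passing the test. Id3 was at 66.0, 43.2 and 37.5 CPM in the luminal controls and 72.2, 123 and 85.4 CPM in the knockout-labelled libraries, which did not overlap (0.94, SE 0.29, adjusted p = 0.113). With the replicate number as a block its fold change was 0.98 (SE 0.26, adjusted p = 0.0520). Bmp4 was at 0.94, 1.02 and 1.31 CPM in the controls and 1.70, 5.996 and 2.20 CPM in the knockout-labelled libraries, where the second library was highest (1.59, SE 0.55, adjusted p = 0.156). Inhbb overlapped, its highest control being above the lower knockout-labelled libraries (0.65, SE 0.32, adjusted p = 0.334). The other Id genes were at -0.08 (Id1), -0.22 (Id2) and 0.50 (Id4), and Bmp2, Bmp6 and Bmp7 at 0.51, 0.90 and 0.79.

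The TGF-beta ligands had mixed signs. Tgfb1 was at 27.9, 23.6 and 26.7 CPM in the luminal controls and 34.5, 45.3 and 35.3 CPM in the knockout-labelled libraries, without overlap (0.56, SE 0.28, adjusted p = 0.337). Tgfb2 was at 45.7, 62.2 and 68.7 CPM in the controls and 46.4, 17.6 and 37.2 CPM in the knockout-labelled libraries, which overlapped (-0.80, SE 0.38, adjusted p = 0.309). Bambi was at 17.2, 26.5 and 12.3 CPM in the controls and 11.97, 10.6 and 8.68 CPM in the knockout-labelled libraries, just without overlap (-0.84, SE 0.32, adjusted p = 0.194). Smad9, at 2, 1 and 1 counts in the controls and 2, 7 and 6 in the knockout-labelled libraries, had a fitted fold change of 1.61 (SE 0.66, adjusted p = 0.229) that rests on those few reads. The remaining receptor genes lay between -0.58 and 0.37, the other receptor SMADs and Smad4 between -0.11 and 0.09, Smad6, Smad7 and Skil between -0.90 and -0.40, the latent TGF-beta binding protein genes between -0.92 and 0.69, and Fst, Nog, Tgfb3, Inhba and Tgfbi at 1.18, -0.56, -0.83, 0.76 and 0.70. None of these was called.

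The fold change in luminal cells minus that in basal cells was tested for each gene, and 0 of 43 were called by edgeR, against 0.275% of all genes (0.0939% higher, 0.181% lower). DESeq2 and limma-voom called 0 too. At an unadjusted p under 0.05 there were 3 of the 43, beside 1467 of all 14903 genes tested. The 3 were Smad9 at 2.09 (adjusted p = 0.380), Bmp2 at -1.09 (SE 0.47, adjusted p = 0.472) and Acvrl1 at -1.09 (SE 0.34, adjusted p = 0.238). The medians were -0.03 over the 43 genes and -0.02 over all. For Id3 the difference was -0.54 (SE 0.41, adjusted p = 0.773) and for Bmp3 it was 1.02 (SE 0.96, adjusted p = 0.856). The call of Id3 in basal and of Bmp3 in luminal cells therefore does not show that either effect differed between the cell types.

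Of 112 other genes of the pathway found in the table, 94 were tested. In the knockout-labelled basal libraries 1 rose and 0 fell (1 was lower at an unadjusted p under 0.05), and the share of 1.06% stands beside 0.671% of all genes. Bmp5, a BMP ligand gene, went from 0.41, 0.54 and 0.46 CPM in the controls to 2.74, 6.99 and 3.48 CPM (3.19, SE 0.55, adjusted p = 0.0297), beside the higher fibroblast markers. In luminal cells 2 rose and 1 fell, 3.19% against 3.03% of all genes. Bmp8b, another BMP ligand gene, went from 0.28, 0.92 and 0.70 CPM to 7.98, 5.19 and 7.21 CPM (3.39, SE 0.63, adjusted p = 0.0167), and Htra1, a secreted protease known to cut TGF-beta family proteins, from 3.74, 4.35 and 15.8 CPM to 21.0, 31.9 and 76.0 CPM (2.44, SE 0.56, adjusted p = 0.0404). Dab2, an endocytic adaptor that binds TGF-beta receptors, fell from 9.17, 17.8 and 25.5 CPM to 5.98, 5.28 and 7.21 CPM (-1.50, SE 0.32, adjusted p = 0.0304). For none of these 94 was the difference in fold change between the cell types called by edgeR. At an unadjusted p under 0.05 there were 16 of the 94, beside 1467 of all 14903 genes tested. The median fold change of the 94 was 0.22 in basal and -0.18 in luminal cells. Between the cell types, 3 were higher and 33 lower in luminal controls, 38.3% against 33.2% of all genes, with the lowest p for genes of the contractile and basal programme: Acta2 (-7.67), Snai2 (-6.34) and Tagln (-5.62). In the knockout-labelled mice 6 were higher and 54 lower, 63.8% against 40.6% of all genes, led by Tagln (-6.65), Acta2 (-7.69) and Bgn (-6.49), the last a matrix proteoglycan gene also expressed by fibroblasts.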

How the data were processed

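Gene counts were deposited by the authors as whole-number counts per Entrez gene. Per the submitters' processing notes, CASAVA 1.8.2, featureCounts and build mm10 were used; these sources name no aligner or annotation. The 12 per-library files and the series table hold the same counts (326148 values, 0 different). Of 27179 genes, 859 have no symbol. Genes were kept by edgeR's filterByExpr (14903) and tested with edgeR 4.0.16 (R 4.3.3): trimmed mean of M-values factors, robust quasi-likelihood F test, 1 model of the 4 groups with 8 residual degrees of freedom, Benjamini-Hochberg adjustment over all genes tested and a threshold of 0.05. All adjusted p-values are two-sided and from this fit unless another tool is named. The biological coefficient of variation was 32.6%. SE was taken as the absolute log2 fold change over the root of the F statistic. CPM per kilobase used the deposited gene lengths. The fit was tested on simulated data. The members and lists were chosen with earlier results of these data known.

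Values in every library are given for called members, for the 8 of lowest p in each knockout comparison and for the 8 of largest change between the cell types; of other pathway genes, up to 3 called per comparison are named, by lowest p. Same-numbered libraries deviated together in luminal cells (correlations 0.36, 0.30 and 0.53) and across cell types in controls (0.31, 0.42 and 0.47). The labels do not say what a number shares. The main fit did not pair libraries by number, and the replicate block, an alternative fit, did. With the block, 1097 of all genes were called in luminal cells against 451 without it. Pairs of replicates differed by 11.7 to 137 times the sampling noise (chi-square per degree of freedom). Alternatives were 2 low-count filters, 2 scalings, DESeq2 1.42.0, limma-voom (limma 3.58.1), the replicate block, fits of only the 2 groups, and leaving out each library. Counting precision is set by depth: 1 count was 0.0667 to 0.109 CPM. Promoters came from RefSeq GRCm38.p6.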

Additional observations from a re-analysis of the deposited data

How the results depend on the processing

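Basal calls were the least stable: the main test called 1 of 43 genes in basal cells, library size alone and upper quartile factors called 0, limma-voom 2 (Bmp2 and Id3), DESeq2 4 (Bmp2, Bmp3, Inhbb and Id3) and the replicate block 3 (Bmp2, Inhbb and Id3). In basal cells the correlations of same-numbered libraries were uneven (-0.09, 0.36 and 0.13). Without replicate 3 in every group, an alternative chosen after seeing the data, 3 were called. In luminal cells DESeq2 called 2 (Bmp3 and Id3) and a fit of only the 2 groups 0. For the difference between the cell types, the replicate block called 1 (Acvrl1) against 0. Over all genes edgeR called 100 in basal cells, 451 in luminal cells and 41 for the difference; DESeq2 called 417, 1089 and 354, the replicate block 236, 1097 and 106, and limma-voom 22 for the difference. Library size alone called 59 in basal cells, a fit of only the 2 groups 151 in basal and 199 in luminal cells, and the fit without replicate 3 in every group 268 and 703. Leaving out 1 library gave 17 (without basal control 1) to 122 (without basal control 3) in basal cells, 127 (without luminal control 2) to 589 (without luminal control 3) in luminal cells and 10 (without luminal knockout-labelled library 2) to 86 (without luminal control 3) for the difference; leaving out any basal library but control 3, or luminal control 1 or 2 or knockout-labelled library 2 or 3, lowered the count in that cell type by over 1.5 times. For the 43 genes, leaving out 1 library gave 0 to 1 in basal cells, 0 to 1 in luminal cells, 0 to 0 for the difference, 19 to 22 between the cell types in controls (23 with all) and 23 to 24 in the knockout-labelled mice (26 with all). Other counts of these 43 genes stayed within 1.5 times, and none of the members with values reversed sign in any alternative. With library size alone the median of all genes, luminal minus basal in the knockout-labelled mice, was 0.15 in place of 0.03. Depth limits genes such as Smad9, Bmp3, Bmp6, Nog and Bmpr1b, at 1 to 14 counts in some libraries. The cause of these changes was not tested.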

Other observations

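Smad3, which encodes the receptor SMAD of TGF-beta and activin, followed the replicate number and not the groups. It was at 239 to 287 CPM in the 4 libraries numbered 3, 1 in each group, and at 89.3 to 120 CPM in the 8 others, without overlap, while its fold change was -0.08 in basal cells (SE 0.58) and -0.01 in luminal cells (SE 0.58). Over all genes, 271 (1.82%) were above and 221 (1.48%) below in every library numbered 3. For number 2 the counts were 96 above and 137 below, with Bmpr1a among those above, and for number 1 they were 3 and 9. Smad3 was chosen after its values were seen, and what a replicate number shares was not given in the labels.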
